A study of Mus musculus with 6 samples.

Results

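Carbonic anhydrases are a family of enzymes that turn carbon dioxide and water into bicarbonate and a proton, and back again. The family was described here through 10 listed genes (Car1, Car2, Car3, Car4, Car5b, Car8, Car9, Car11, Car13 and Car14) out of 22180 genes measured in gastrocnemius, a calf muscle, of mice. The listed genes were matched by the gene symbol of the array's annotation, and a gene read by more than 1 probe set was represented by its brightest, chosen by the mean level of the 6 arrays. Of the 10 genes, 9 had a probe set of their own; the only probe set listed for Car14 also named Aph1a, so no value is given as that of Car14. Only this mean level over both groups selected probe sets, and the family itself was chosen with the rise of Car2 in these same arrays known, so that rise is a description here and supports nothing about the family.

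The series compared 3 control mice, which carried floxed alleles of TAK1 (a kinase encoded by Map3k7) without deletion, with 3 littermates in which TAK1 had been deleted in skeletal muscle for 3 weeks. Each mouse gave RNA to 1 Affymetrix array. The labels give the genotypes as floxed TAK1 and muscle-specific TAK1 knockout; nothing used here states strain, sex, age, the Cre driver or how deletion was started. All values below are log2 levels of RMA probe set summaries, so a difference of 1 is a doubling, and levels of different genes are not set against each other because each probe set has its own brightness. In whole muscle, fewer cells of a type and less RNA per cell cannot be told apart.

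As facts of the whole series, the median log2 level of the arrays lay between 5.78 and 5.84, and Pearson's r across genes was 0.990 to 0.992 within groups and 0.985 to 0.990 between them. Map3k7, the targeted gene, had a log2 level of 8.40 ± 0.07 in controls and of 8.22 ± 0.06 in knockouts (SD, n = 3), without overlap between the groups, but its log2 difference of −0.19 did not pass the test (limma, adjusted p = 0.686). Without overlap, 6.65% of all genes were lower. Which exons were deleted is not stated in what was used here, so the Map3k7 level does not check the labels. The group means of the fast fibre markers Myh4, Atp2a1 and Actn3 lay between 13.97 and 14.15 on the log2 scale, so the defining genes of this fast muscle were present. As a guide to background, 1394 olfactory and vomeronasal receptor genes, which muscle is not known to use, had a 95th percentile of 5.85, called the receptor-gene level below; it decided no call.

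The members divide by where they act. Car1, Car2, Car3 and Car13 are enzymes of the cytosol, Car5b works in mitochondria, and Car4, Car9 and Car14 sit in membranes with their catalytic part outside the cell. Car8 and Car11 are related proteins that lack residues needed for catalysis and have no such enzyme activity. In muscle the family moves carbon dioxide out of working fibres, buffers protons and helps lactate transport. Car3 is known as an abundant protein of slow oxidative fibres, of liver and of fat, with much lower catalytic activity than Car2, while Car2 is a very fast enzyme found in red blood cells, osteoclasts, kidney and brain.

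Of the 9 measured members, 1 passed an adjusted p of 0.05 over all genes and it was higher in knockout muscle. That member was Car2; 0 members fell and 8 did not pass. An unadjusted p under 0.05 was found for 3 of the 9 members and for 8.04% of all genes. In the same test 21 of 22180 genes passed (0.0947%), 9 higher (0.0406%) and 12 lower (0.0541%). Of the members, 3 had a higher and 6 a lower mean in knockout muscle, with a median log2 difference of −0.08 and differences from −0.63 to 1.09, beside a median of −0.0003 over all genes, of which 50.1% were lower. The median size of the difference, regardless of sign, was 0.11 for the members and 0.10 for all genes. The groups did not overlap in 2 members, Car2 and Car3, where this held for 13.4% of all genes (6.74% with knockout higher, as Car2, and 6.65% with knockout lower, as Car3). Of the 9 members, 6 had a mean above the receptor-gene level; Car1, Car9 and Car13 did not.

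**Figure D1:**
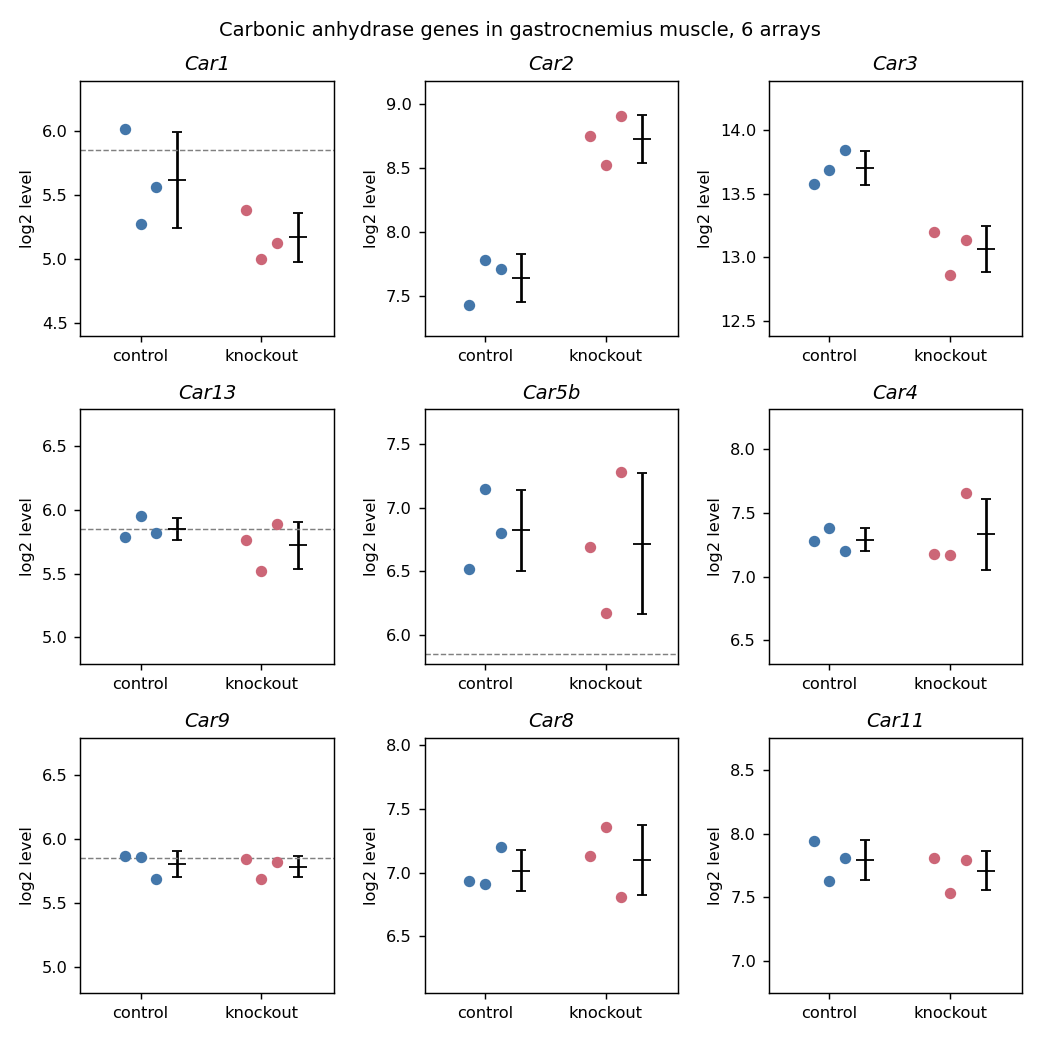
Log2 level (vertical axis, each panel spanning 2 log2 units) of the 9 measured carbonic anhydrase genes in 3 control (blue) and 3 knockout (red) arrays; the black mark and bar are the mean and SD, and the dashed line is the receptor-gene level of 5.85 where it falls in the panel. The 3 knockout points lie above the 3 control points for Car2 and below them for Car3, and the groups overlap in the other panels.

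Car2, the fast cytosolic enzyme, had log2 levels of 7.43, 7.78 and 7.71 in controls 1 to 3 and of 8.75, 8.53 and 8.91 in knockouts 1 to 3. The lowest knockout array thus lay above the highest control array. Its mean rose 2.13-fold, from 7.64 ± 0.19 to 8.73 ± 0.19 (SD, n = 3), with a log2 difference of 1.09 and a 95% confidence interval from 0.78 to 1.40 (limma, adjusted p = 0.0368 over all genes). Over all genes, 16 had a larger rise and 17 a smaller p. The call was lost without any 1 of the 6 arrays (adjusted p from 0.0927 to 0.185), while the log2 difference in these fits stayed between 0.99 and 1.19. It was also lost when all 41345 probe sets were tested (adjusted p = 0.198), where 0.0145% of probe sets and 0 members passed. The same held when variance was not shared between genes (adjusted p = 0.467) and with the replicate number as a block (limma, adjusted p = 0.107). Over all alternatives the adjusted p ran from 0.0122 to 0.467.

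Car3, the cytosolic enzyme known for its abundance in muscle, had log2 levels of 13.57, 13.69 and 13.84 in controls and of 13.20, 12.86 and 13.14 in knockouts. All 3 knockout arrays lay below all 3 control arrays. Controls had a mean of 13.70 ± 0.13 and knockouts of 13.07 ± 0.18 (SD, n = 3), a change of −35.6% on the linear scale, with a log2 difference of −0.63 and a 95% confidence interval from −0.92 to −0.35. It did not pass over all genes (limma, adjusted p = 0.178), where 115 genes had a larger fall in mean and 90 a smaller p. The highest value on any of the 6 arrays lay between 14.31 and 14.34, so Car3 was measured near the top of the scale, where a difference can be compressed.

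Another probe set of Car3 gave dimmer values, 9.93, 10.40 and 10.54 in controls and 9.31, 9.04 and 9.42 in knockouts. Here too no knockout array reached the lowest control array. Its log2 difference was −1.03, between means of 10.29 ± 0.32 for controls and 9.26 ± 0.19 for knockouts (SD, n = 3), or 2.05-fold. Put in the place of the brighter probe set, a choice made after its values were seen, it did not pass either (limma, adjusted p = 0.122). Both probe sets of Car3 therefore gave a lower mean in knockout muscle without passing the test. In both probe sets knockout 2 was the lowest array and control 3 the highest.

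Car1, a cytosolic enzyme best known from red blood cells, had log2 levels of 6.02, 5.28 and 5.57 in controls and of 5.38, 5.001 and 5.13 in knockouts. Control 1 was the only array above the receptor-gene level, and control 2 lay below knockout 1. The log2 difference was −0.45 (95% confidence interval −0.88 to −0.02; limma, adjusted p = 0.601), and since both group means (5.62 and 5.17) were below that level no fold is given. Without control 1 the log2 difference was −0.25 and without control 2 it was −0.62. Car13, the remaining cytosolic enzyme, had levels of 5.79, 5.95 and 5.82 in controls and of 5.76, 5.52 and 5.89 in knockouts, which overlapped around the receptor-gene level (log2 difference −0.13, 95% confidence interval −0.40 to 0.14; limma, adjusted p = 0.851).

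**Figure D2:**
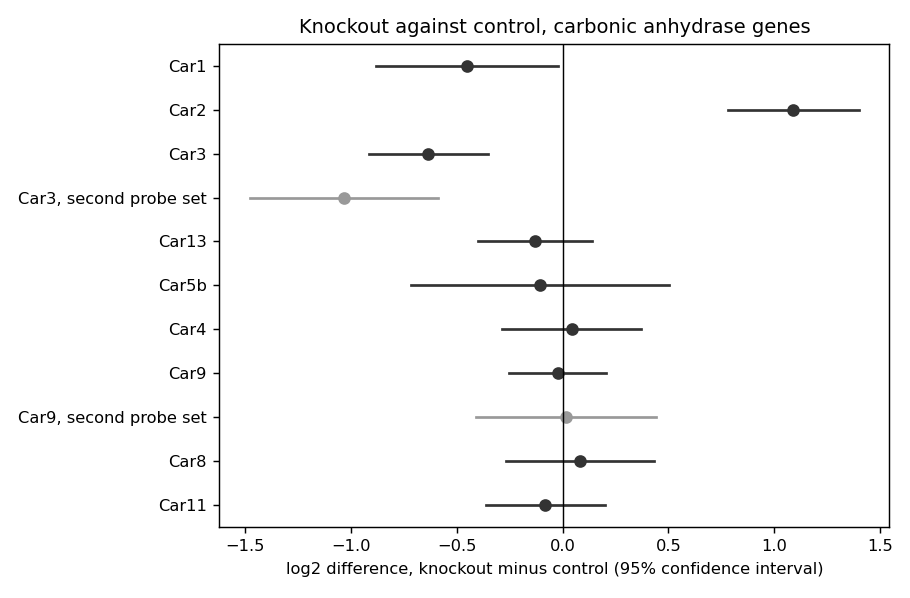
Log2 difference, knockout minus control (horizontal axis), with its 95% confidence interval for each measured carbonic anhydrase gene (black) and for the other probe set of Car3 and of Car9 (grey, from the fit of every probe set). The intervals of Car2 (0.78 to 1.40) and of Car3 (−0.92 to −0.35) lie on opposite sides of 0, and those of Car13, Car5b, Car4, Car9, Car8 and Car11 include 0.

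In the mouse RefSeq gene table, the 4 genes of the cytosolic enzymes lie beside each other on the same chromosome in the order Car13, Car1, Car3, Car2, with only pseudogenes and a long noncoding RNA gene listed between them. The direct neighbours Car3 and Car2 differed between the groups in opposite directions, by −0.63 and 1.09 on the log2 scale. The genes flanking the cluster, looked at after the values of Car2 and Car3 were known, had smaller differences. On the side of Car13 these were Rbis (0.04, adjusted p = 0.951), the cell cycle factor E2f5 (0.01, adjusted p = 0.991) and Lrrcc1 (−0.07, adjusted p = 0.951), and on the side of Car2 the noncoding transcript A930001A20Rik (−0.08, adjusted p = 0.937), all by limma. A930001A20Rik had means of 4.62 and 4.53, below the receptor-gene level. The flanking genes were matched to probe sets by symbol only. Where these probe sets lie was not checked, so the one named for Rbis may not read the gene beside Car13. Rbis did not overlap between groups, with control levels of 8.81 to 8.83 and knockout levels of 8.84 to 8.90. It was higher without overlap, as were 6.74% of all genes.

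**Figure D3:**
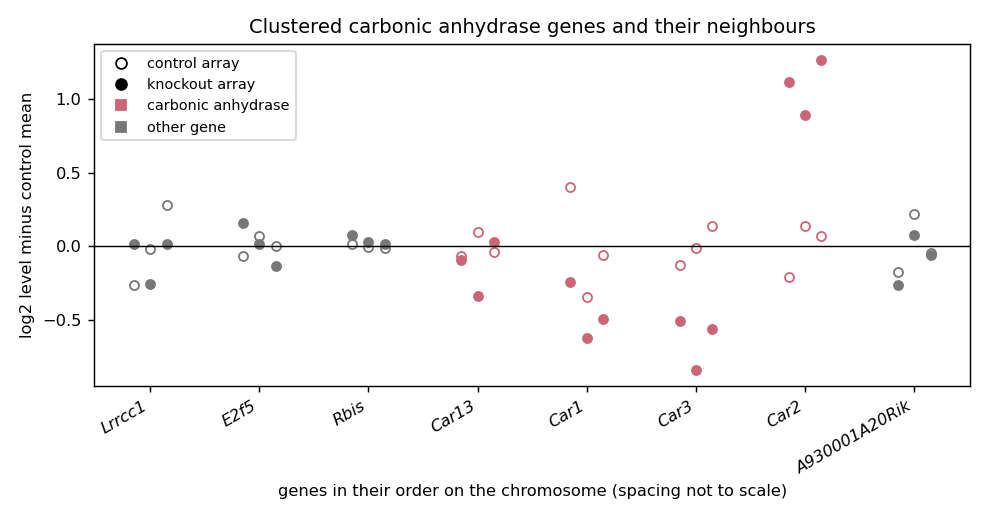
Log2 level minus the control mean (vertical axis) in each control (open) and knockout (filled) array for the clustered carbonic anhydrase genes (red) and the measured genes beside them (grey), in chromosome order with spacing not to scale. Knockout points of Car3 lie below and those of Car2 above the control points, while for Lrrcc1, E2f5 and A930001A20Rik the groups overlap.

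Car5b, the mitochondrial enzyme that supplies bicarbonate to carboxylases, had log2 levels of 6.52, 7.15 and 6.80 in controls and of 6.69, 6.17 and 7.28 in knockouts. The knockout arrays held both the lowest and the highest value, with an SD of 0.55 against 0.32 in controls. The log2 difference was −0.11 with the widest interval of the 9 measured members, −0.72 to 0.50 (limma, adjusted p = 0.962), and its sign turned without control 2 (0.06) or knockout 2 (0.16).

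Car4, an enzyme held on the outer face of the membrane of capillary endothelium and muscle fibres by a lipid anchor, had log2 levels of 7.28, 7.38 and 7.20 in controls and of 7.17, 7.17 and 7.65 in knockouts. Knockout 3 lay above the other 5 arrays, and knockouts 1 and 2 below all controls. The log2 difference was 0.04 (95% confidence interval −0.29 to 0.37; limma, adjusted p = 0.972) and −0.12 without knockout 3. Car9, a membrane enzyme that hypoxia induces in many tissues, had levels of 5.87, 5.86 and 5.69 in controls and of 5.84, 5.69 and 5.82 in knockouts, at about the receptor-gene level (log2 difference −0.02, 95% confidence interval −0.25 to 0.21; limma, adjusted p = 0.982). Its other probe set, with a log2 difference of 0.02, was as dim, with means of 5.73 and 5.74.

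Car8, a related protein that binds the IP3 receptor and lacks enzyme activity, had log2 levels of 6.93, 6.91 and 7.21 in controls and of 7.13, 7.36 and 6.81 in knockouts. The groups overlapped, with knockout 2 the highest and knockout 3 the lowest of the 6 arrays. The log2 difference was 0.08 (95% confidence interval −0.27 to 0.43; limma, adjusted p = 0.947). Car11, a secreted related protein without enzyme activity, had levels of 7.94, 7.63 and 7.81 in controls and of 7.81, 7.53 and 7.79 in knockouts, which overlapped as well (log2 difference −0.08, 95% confidence interval −0.36 to 0.20; limma, adjusted p = 0.925). For Car4, Car8 and Car11, which lay above the receptor-gene level, the intervals all lay within −0.36 and 0.43 on the log2 scale, whereas that of Car5b reaches −0.72. For Car9 and Car13, which did not, the interval gives no bound, since differences of dim genes are compressed.

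Of the other 6 family genes (Car5a, Car6, Car7, Car10, Car12 and Car15), 5 had a probe set of their own, and 0 passed over all genes (smallest limma adjusted p 0.258; 1 with an unadjusted p under 0.05). Car10, a related protein of the nervous system without enzyme activity, had control levels of 5.02 to 5.17 and knockout levels of 5.46 to 5.51 (log2 difference 0.40, limma, adjusted p = 0.258). It was higher without overlap, as were 6.74% of all genes. Both means of Car10, 5.10 and 5.49, lay below the receptor-gene level, as did those of Car6 and Car12. Car7 and Car15 had log2 differences of 0.03 and 0.02, and Car12 of −0.11.

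Genes that handle the products of the reaction were counted next. Of 14 measured bicarbonate transporters, 0 passed (limma), 4 were higher and 10 lower, with a median log2 difference of −0.06 beside −0.0003 over all genes; 2 had an unadjusted p under 0.05 and 6 lay above the receptor-gene level. The sodium bicarbonate cotransporter Slc4a4 had control levels of 9.49, 9.48 and 9.90 and knockout levels of 9.32, 9.04 and 8.84. Its groups did not overlap, with a log2 difference of −0.56 (limma, adjusted p = 0.390). The chloride bicarbonate exchanger Slc4a2 did not overlap either, with control levels of 6.81 to 7.05 and knockout levels of 6.43 to 6.53 (log2 difference −0.42, limma, adjusted p = 0.274). Both transporters were lower without overlap, as were 6.65% of all genes.

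Of 16 measured genes of proton and lactate export, 0 passed (1 with an unadjusted p under 0.05), 8 were higher and 8 lower, with a median of −0.03. The lactate exporter Slc16a3, also called MCT4, had control levels of 10.08, 9.98 and 9.64 and knockout levels of 9.30, 9.29 and 9.35 on the log2 scale. No knockout array reached the lowest control (log2 difference −0.59, 95% confidence interval −0.88 to −0.30; limma, adjusted p = 0.233). Its relative Slc16a8 had a log2 difference of −0.28 (limma, adjusted p = 0.646), and Bsg, the chaperone of these exporters, of 0.03. Slc9a5 (−0.14) was also lower without overlap, as were 6.65% of all genes.

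Of 9 enzymes that use bicarbonate as a substrate, 0 passed (1 with an unadjusted p under 0.05), 2 were higher and 7 lower, with a median of −0.10. Pcx, the mitochondrial pyruvate carboxylase, had control levels of 9.78, 9.49 and 9.60 and knockout levels of 8.55, 8.20 and 8.95. Its groups did not overlap, with a log2 difference of −1.06 (95% confidence interval −1.47 to −0.64), and it did not pass over all genes (limma, adjusted p = 0.129). The other mitochondrial carboxylase subunits differed less, with Pccb at 0.16 (limma, adjusted p = 0.758) and Pcca at −0.13 (adjusted p = 0.786). In both the groups did not overlap, which held for 13.4% of all genes.

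Of 7 channels and carriers for carbon dioxide and oxygen, 0 passed (0 with an unadjusted p under 0.05), with a median of −0.01. The largest differences were in Rhag (0.20, below the receptor-gene level) and myoglobin, Mb (0.15), and the water and gas channels Aqp1 and Aqp4 had log2 differences of −0.09 and −0.10. Of 4 measured genes of IP3 receptors and IP3 kinases, 0 passed (0 with an unadjusted p under 0.05) and all 4 had a lower mean, with a median of −0.16. The receptor Itpr1, also on this list, had no probe set of its own and was not measured. The receptor Itpr2 had a log2 difference of −0.19 and the kinase Itpkb of −0.18 (limma, adjusted p = 0.738 and 0.703). Both were lower without overlap between the groups, as were 6.65% of all genes.

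Of 19 measured genes of the hypoxia response, which in many tissues includes Car9, 0 passed (4 with an unadjusted p under 0.05), 12 were higher and 7 lower, with a median of 0.13. Egln3, an oxygen sensor that hypoxia induces, had control levels of 10.40, 9.95 and 9.70 and knockout levels of 10.47, 10.52 and 11.27, so the groups did not overlap (log2 difference 0.73, limma, adjusted p = 0.468). Pfkfb3, a regulator of glycolysis, had a log2 difference of 0.47 with overlapping groups (limma, adjusted p = 0.698). Besides Egln3, those with an unadjusted p under 0.05 were Hif1a (0.30), Vegfa (0.27) and, lower, Mxi1 (−0.32). Of the 19 genes, 4 were higher and 2 lower without overlap, beside 6.74% and 6.65% of all genes.

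**Figure D4:**
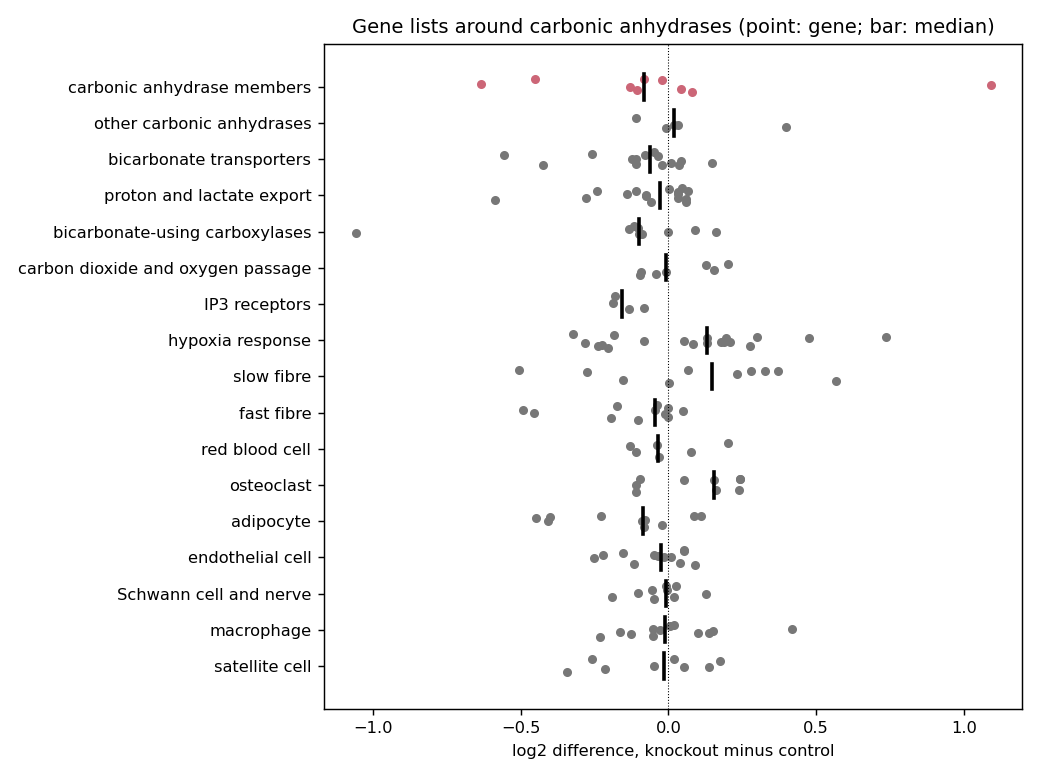
Log2 difference, knockout minus control (horizontal axis), of every measured gene (points) of the carbonic anhydrase members (red) and of the gene lists (grey), with black bars at the medians. Car2 is the point at 1.09, Pcx the point at −1.06, and the list medians run from −0.16 (IP3 receptors) to 0.15 (osteoclast).

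Markers of cells known to hold much carbonic anhydrase were set beside Car2 and Car3. Of 15 red blood cell markers, 6 were measured, 2 higher and 4 lower, with 0 called (0 with an unadjusted p under 0.05, limma), a median of −0.04 and log2 differences from −0.13 (Ank1) to 0.20 (Rhag). Their summed level per array, on the log2 scale, ran from 8.90 to 9.12 in controls and from 8.92 to 8.99 in knockouts. Ank1, with means of 8.19 and 8.06, weighs most in this sum, which therefore says little about the other markers. Epb42, Klf1 and Rhag were not above the receptor-gene level. The list's globin genes gave no value here, as no probe set named them alone, so these markers do not measure the blood content of the samples. Of 9 osteoclast markers, 6 were higher and 3 lower, with 0 called (0 with an unadjusted p under 0.05), a median of 0.15 and 3 without overlap, all higher (Ctsk, Mmp9 and Atp6v0d2), where 6.74% of all genes were higher without overlap. The 2 largest differences were 0.24 in Oscar and 0.24 in Atp6v0d2. The 3 lower markers were Dcstamp (−0.11), Ocstamp (−0.10) and Tnfrsf11a (−0.11), with overlapping groups. Their summed level ran from 8.95 to 9.08 in controls and from 9.05 to 9.11 in knockouts, and Calcr, Atp6v0d2, Oscar and Tnfrsf11a were not above the receptor-gene level. The part of red blood cells and of osteoclast markers in the Car2 difference was not tested.

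Of 12 macrophage markers, 6 were higher and 6 lower, with 0 called (0 with an unadjusted p under 0.05), a median of −0.01 and the largest differences in Cd68 (0.42) and Adgre1 (−0.23). Their summed level ran from 10.71 to 11.02 in controls and from 10.72 to 11.12 in knockouts, with Cd14 not above the receptor-gene level. Of 9 measured Schwann cell and nerve markers, 3 were higher and 6 lower, with 0 called (0 with an unadjusted p under 0.05), a median of −0.01, the largest differences in Nefm (−0.19) and Sox10 (0.13), and summed levels of 9.45 to 9.62 in controls and 9.46 to 9.61 in knockouts. S100b, Ncmap, Nefl and Nefm were not above the receptor-gene level. Sox10 was higher without overlap, as were 6.74% of all genes. Of 8 satellite cell markers, 4 were higher and 4 lower, with 0 called (1 with an unadjusted p under 0.05) and a median of −0.02. The largest differences were in Myod1 (−0.34) and Cdh15 (−0.26), with Calcr not above the receptor-gene level. Des and Msc were higher and Cdh15 lower without overlap, beside 6.74% and 6.65% of all genes. The summed level, in which the muscle gene Des weighs most, ran from 13.22 to 13.37 in controls and from 13.40 to 13.48 in knockouts, without overlap. The part of these markers in the Car2 difference was not tested.

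Slow fibres, fat and fast fibres were set beside Car3. Of 10 slow fibre markers, 7 had a higher mean and 3 a lower one in knockout muscle, with 0 called (0 with an unadjusted p under 0.05, limma), a median of 0.15 and the largest differences in the slow calcium pump Atp2a2 (0.57) and in Tnni1 (−0.51). All 10 were above the receptor-gene level, and their summed level was 12.39, 13.14 and 12.05 in controls and 12.38, 12.88 and 12.98 in knockouts. Control 3, the array with the highest Car3, had the lowest slow fibre sum. Knockout 2, the array with the lowest Car3, had a sum of 12.88, within the range of the controls. These are single arrays, and the sums were not tested against Car3. Among the fat markers counted next, Retn and Pparg were, like Car3, highest in control 3 (8.82 and 7.10). They were lowest in knockout 2 (7.51 and 6.44), as was Car3, and no other adipocyte marker matched Car3 in both arrays. Adipoq and Plin1 were instead highest in knockout 3 (6.78 and 6.64). Retn and Pparg were picked for this likeness after the values were seen, so it is a description only. Of 10 measured adipocyte markers, 8 were lower, with 0 called (0 with an unadjusted p under 0.05), a median of −0.09 and the largest differences in Thrsp (−0.45) and Cidec (−0.41). Their summed levels were 12.19 to 12.70 in controls and 12.35 to 12.66 in knockouts. Fabp4 (0.11) and Pnpla2 (0.09), the 2 with a higher mean, weigh most in these sums, which therefore say little about the 8 lower markers. Lep was not above the receptor-gene level. Of 11 fast fibre markers, 10 were lower, with 0 called (2 with an unadjusted p under 0.05), a median of −0.05 and summed levels of 17.07 to 17.12 in controls and 16.95 to 17.02 in knockouts, which did not overlap. In 4 of the 11 (Myh1, Tnnc2, Mylpf and Myl1) the groups did not overlap, all lower, where 6.65% of all genes were lower without overlap. Like Car3, these markers lie near the top of the scale, where differences can be compressed. The largest differences were in the fast myosin Myh1 (−0.49) and the light chain Mylpf (−0.46), with adjusted p of 0.418 and 0.221 by limma. The part of fibre type and fat in the Car3 difference was not tested.

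For Car4, which capillary endothelium holds, 12 endothelial markers were counted. Of these, 5 were higher and 7 lower, with 0 called (0 with an unadjusted p under 0.05, limma), a median of −0.03, the largest differences in Egfl7 (−0.25) and Tek (−0.22), and summed levels of 11.75 to 12.05 in controls and 11.88 to 11.90 in knockouts. All 12 were above the receptor-gene level. Egfl7 was lower without overlap, as were 6.65% of all genes.

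The genes whose pattern was most like that of Car2 over the 6 arrays, by Pearson's r among 11803 other named genes above the receptor-gene level, were Rps24 (r = 0.993), Suclg2 (0.991), Rpsa (0.990), Nrde2 (0.989) and Tlcd3b (0.983). Rps24 and Rpsa are ribosomal proteins and Suclg2 a subunit of a tricarboxylic acid cycle enzyme. Their log2 differences were smaller than that of Car2, from 0.18 (Nrde2) to 0.50 (Tlcd3b), and none of these 5 passed (limma, adjusted p from 0.202 to 0.673). Those most like Car3 were the netrin receptor Unc5a (r = 0.997), Dlgap4 (0.997), Cyb5r1 (0.994), the insulin receptor adaptor Grb10 (0.993) and L3mbtl3 (0.987). Their log2 differences ran from −0.51 (Unc5a) to −0.10 (L3mbtl3), and none of the 5 passed (adjusted p from 0.233 to 0.841). The r values are over 6 arrays that fall into 2 groups, so any gene that differs between the groups with little spread scores high, and they are a description.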

How the data were processed

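Gastrocnemius RNA of 6 mice was measured on 1 Affymetrix array each. The deposited values are log2 probe set levels, and the submitters' processing notes name RMA, oligo and limma, with no version. RMA subtracts background, equalises the arrays' distributions and summarises probes, which compresses differences of dim genes. Of 41345 probe sets, 23521 had 1 symbol in GEO's platform annotation, 1814 several and 16010 none. Entrez identifiers of 23328 were found in the RefSeq table of GRCm38.p6, which was used only for names and gene order. The 22180 genes were tested with limma 3.58.1 in R 4.3.3 (lmFit, eBayes, group means, two-sided, Benjamini-Hochberg over all genes, threshold 0.05), with no filter on dim genes. Plots used matplotlib 3.10.9 in Python 3.11.15. The fit was checked on simulated data. Array number limits precision, and scan batches were not tested, since scanner files were not used here.

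The members, gene lists and tests were chosen with earlier results of these data known. The text names all members, Map3k7, called members of each list or otherwise its 2 largest differences, and the 5 genes most like Car2 and Car3, leaving out predicted genes and clone names; other genes, the flanking genes included, were chosen after their values were seen. Alternatives were median centring, quantile normalization, a mean of a gene's probe sets, every probe set, 2 filters on dim genes, 3 variance models, the replicate number as a block, each array left out and, chosen after seeing the data, the other probe set of Car3 and Car9.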

Additional observations from a re-analysis of the deposited data

Results flagged for a closer look

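A probe set annotated to both Car14 and Aph1a, a subunit of gamma-secretase, entered no comparison of genes, and its knockout values all lay above its control values. Controls had log2 levels of 9.58, 9.82 and 9.38 and knockouts of 10.12, 10.08 and 10.22, with a log2 difference of 0.55 that did not pass over all 41345 probe sets (limma, adjusted p = 0.576). The probe sets that named Aph1a alone had log2 differences of −0.01 and 0.19, with overlapping groups. Which of the genes the shared probe set reads cannot be told from these values. The probe set shared by Car5a and BC048644 had a log2 difference of −0.10 with overlapping groups.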

How the results depend on the processing

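The count of called genes was 21 and became 53 with genes above the median, 45 with genes above the receptor-gene level, 36 with an intensity trend and robust prior, 6 with every probe set tested and 0 without sharing of variance (1612 at an unadjusted p under 0.05); without 1 array it was 2 to 11. The count of called carbonic anhydrase genes was 1 and became 0 with every probe set, without sharing of variance, with the replicate block and without any 1 array. The Car2 log2 difference was 1.09 in the first 3 of these, past the threshold in none (adjusted p = 0.198, 0.467 and 0.107), and 0.99 to 1.19 without 1 array; it passed in the other 7 of 16 alternatives. The cause of these changes was not tested. Car3 passed in 0 of 17 alternatives, with a log2 difference from −1.03 to −0.53 and an adjusted p from 0.0667 to 0.525. Car1 and Car13 kept their sign in 14 of 14, with −0.62 to −0.25 for Car1 and −0.21 (without knockout 3) to −0.030 (without knockout 2) for Car13 without 1 array. Without 1 array the log2 difference ran from −0.39 to 0.16 for Car5b, from −0.12 to 0.12 for Car4, from −0.080 to 0.024 for Car9, from −0.048 to 0.23 for Car8 and from −0.16 to 0.0080 for Car11, so these 5 have no settled sign; Car9 was also 0.016 with its other probe set. Control and knockout mice share replicate numbers. Deviations of same-numbered arrays correlated at 0.08, 0.21 and −0.07, and 3 of 6 arrays correlated best with their own number. With so few arrays these values cannot tell whether the numbers pair the mice. With the block 17 genes passed. The signal over background limits Car1, Car9 and Car13, and the top of the scale limits Car3 and the fast fibre markers.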
